A study of Homo sapiens with 8 samples.

Results

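CYP24A1, the hydroxylase that inactivates vitamin D hormone, was followed here together with the genes that make and sense that hormone: CYP27B1, the vitamin D receptor gene VDR, and the retinoid X receptor genes RXRA and RXRB. Every probe set (a group of short array probes that reads 1 transcript) whose only gene symbol was one of these 5 genes was taken, which gave 11 of the 54613 probe sets tested: 1 for CYP24A1, 4 for VDR, 1 for CYP27B1, 2 for RXRA and 3 for RXRB. The genes were chosen by their soft against stiff log2 differences in these same arrays: CYP24A1 for its fall on soft, the others as its partners in the pathway with their values already known. Their differences are therefore given as a description, with standard errors and without a test.

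The cells were MDA-MB-231, an established human breast cancer line of the triple-negative type, kept for 2 days on a soft or on a stiff substrate in the same serum-containing DMEM/F12 medium. No vitamin D compound is named in the labels. Each substrate had 4 arrays of total RNA, lettered A to D and called biological replicates; the labels do not say how the cultures were separated, so errors and p-values rest on a spread between samples that may be technical. Array values are log2 RMA levels (a step up of 1 is a doubling), and the stiffness of the substrates is not given in the sources used here.

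Vitamin D is hydroxylated first by enzymes such as CYP2R1 and CYP27A1 and then by CYP27B1, which completes the active hormone. The hormone binds VDR, a nuclear receptor that pairs with an RXR and binds paired half-sites in DNA to switch genes on or off. CYP24A1 is the best-known gene that this receptor switches on, and its mitochondrial enzyme breaks the hormone down, which closes a feedback loop. In bulk RNA a lower level in every cell and fewer cells that express the gene cannot be told apart.

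The receptor pair recognises half-sites, so the stretch before the gene start is shown for the members that the RefSeq promoter table (GRCh38.p14) holds, RXRA and RXRB, and for G0S2, the VDR target outside the 5 genes that fell most on soft (its values come further on). The capitals mark the nuclear receptor half-site on either strand, taken as AGGTCA with G also allowed as the first letter, T as the third and G as the fifth.

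RXRA (chr9:134326205-134326454, plus strand): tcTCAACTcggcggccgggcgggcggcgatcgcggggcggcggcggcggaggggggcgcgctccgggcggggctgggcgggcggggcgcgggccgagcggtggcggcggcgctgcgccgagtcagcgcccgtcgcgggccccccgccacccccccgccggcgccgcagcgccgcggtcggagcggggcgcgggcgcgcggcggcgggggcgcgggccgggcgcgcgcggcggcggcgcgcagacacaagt

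RXRB (chr6:33200854-33201103, minus strand): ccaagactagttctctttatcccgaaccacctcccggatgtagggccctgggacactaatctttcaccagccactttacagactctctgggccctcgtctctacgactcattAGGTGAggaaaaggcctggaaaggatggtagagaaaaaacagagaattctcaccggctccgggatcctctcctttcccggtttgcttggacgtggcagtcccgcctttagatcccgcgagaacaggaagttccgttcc

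G0S2 (chr1:209675162-209675411, plus strand): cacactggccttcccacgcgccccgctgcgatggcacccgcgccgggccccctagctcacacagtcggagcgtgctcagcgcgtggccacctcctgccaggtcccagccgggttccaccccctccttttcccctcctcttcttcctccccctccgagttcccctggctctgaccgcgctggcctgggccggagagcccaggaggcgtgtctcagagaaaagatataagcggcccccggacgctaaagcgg

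RXRA and RXRB each hold 1 half-site in these 250 bases, and G0S2 holds none of these letters. That of RXRA lies on the strand opposite to the gene, 248 bases before the start, and that of RXRB on the gene's own strand, 138 bases before it. RXRA and RXRB each have another listed start, not printed, again with 1 half-site, on the gene's own strand 236 and 103 bases before it. A half-site was present in 55.7% of the 34943 promoters searched. The paired element that VDR with RXR prefers is known as DR3 and made of 2 half-sites 3 bases apart. It was met with at most 1 mismatch by none of the 3 printed promoters and by 4.44% of all promoters. The match is a description of letters and not of binding. CYP24A1, VDR and CYP27B1 are named here without a promoter sequence.

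The arrays fitted the labelled cell line in part. Mesenchymal and basal markers such as VIM, CD44 and AXL were above background for 7 of 7 genes, and PGR, CDH1 and FOXA1 were below it. ESR1 lay barely above it, while KRT8, EPCAM, GATA3 and ERBB3, also listed as low in this line, were above it too. ERBB3 was higher on soft by 0.32 (limma adjusted p = 0.00994), and AXL was lower, with a difference of -0.23 (limma adjusted p = 0.0318). The background level was 6.26, which is the 95th percentile over the mean levels of 16 genes held to be silent in breast cells. No leukocyte marker of 3 measured was above it, and 2 of 6 fibroblast and 1 of 4 endothelial markers were. PECAM1, the endothelial one, was higher on soft by 0.49 (limma with Benjamini-Hochberg adjustment, adjusted p = 0.00211), while CDH5, VWF and KDR were below background. KDR went the other way, with a difference of -0.29 (limma adjusted p = 0.205). The mean level of the endothelial list ran from 5.50 to 5.79 over the stiff arrays and from 5.66 to 5.81 over the soft ones. Its part in the results below was not tested. Arrays correlated at 0.993 to 0.998 with one another, and no 2 arrays were identical. Over all probe sets 9.27% passed an adjusted p of 0.05 between the substrates, and 10.3% of 19775 genes did when each was read by its brightest probe set (5.93% lower and 4.39% higher on soft).

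CYP24A1 was lower on soft. Its only probe set, 206504_at, read 8.73, 8.93, 9.10 and 8.94 on stiff A, B, C and D, and 7.85, 7.94, 8.18 and 7.73 on soft A, B, C and D. The groups did not overlap: the lowest stiff array stood 0.55 above the highest soft array, and all 16 soft against stiff pairs of arrays had the soft one lower, by up to 1.37. The mean level fell from 8.93 ± 0.15 (SD, n = 4) to 7.93 ± 0.19 (SD, n = 4), a difference of -1.0 with a moderated SE of 0.104, so that stiff held 2.0 times the soft level. The spread within a group, 0.37 on stiff and 0.45 on soft from lowest to highest array, was smaller than the gap between the group means. Leaving out any array in turn kept the difference between -1.09 and -0.94. Of 19775 genes, 9 had a more negative difference. CYP24A1 lies on chromosome 20 at 54143538 to 54173986 (GRCh38.p14).

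**Figure D1:**
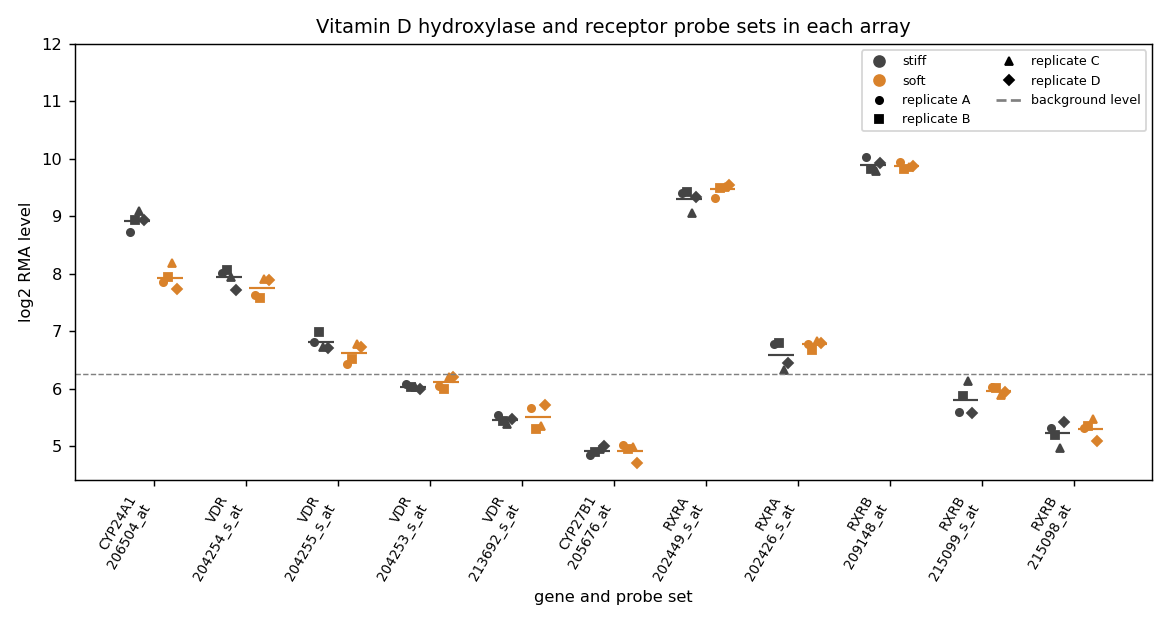
Log2 RMA level (vertical axis) of each of the 11 probe sets (horizontal axis) in every array; dark symbols are stiff and orange symbols soft arrays, the marker shape gives the replicate letter, short lines are group means (n = 4) and the dashed line is the background level of 6.26. The soft and stiff symbols are apart for CYP24A1 and overlap for the other 10 probe sets.

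Among the 11 probe sets that of CYP24A1 was the 1 that passed the fit's threshold, beside 9.27% of all probe sets, and the 1 whose groups did not overlap, beside 16.6% of all probe sets (8.5% with soft lower). Since this contrast chose the members, nothing is read from these counts. Whether CYP24A1 differed more than the other members was not tested.

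VDR, the receptor that CYP24A1 answers to, gave a smaller difference that varied between probe sets. The brightest, 204254_s_at, read 8.01, 8.07, 7.95 and 7.72 on stiff A to D and 7.63, 7.57, 7.90 and 7.89 on soft A to D. Soft A and B were the lowest of all arrays, whereas soft C and D lay inside the stiff range. The difference was -0.19 (SE 0.0998, 95% interval -0.41 to 0.03), and that of the mean over all 4 probe sets was -0.0644.

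The next VDR probe set, 204255_s_at, had the same layout, at 6.81, 6.98, 6.73 and 6.71 on stiff A to D and 6.42, 6.52, 6.78 and 6.73 on soft A to D, with a difference of -0.195 (SE 0.0937). Here too soft A and B were the lowest arrays and soft C and D lay within the stiff range. The remaining VDR probe sets, 204253_s_at at 5.99 to 6.21 and 213692_s_at at 5.29 to 5.72, stayed below the background level in every array, with differences of 0.0825 and 0.045. The probe sets thus gave signs that differed between the brighter and the dimmer pair. All 4 carry the manufacturer's mark for probes shared between transcripts. CYP24A1 was not arranged this way: soft A, B and D lay together at 7.73 to 7.94, below soft C. VDR lies on chromosome 12 at 47841537 to 47904994.

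CYP27B1, the enzyme that completes the active hormone, was not above background on any array. Its probe set 205676_at read 4.84, 4.89, 4.94 and 5.0 on stiff A to D and 5.02, 4.95, 4.98 and 4.70 on soft A to D. The groups overlapped fully, and the difference of -0.005 (SE 0.0792) at such a dim level says little about the transcript. CYP27B1 lies on chromosome 12 at 57762334 to 57767078.

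RXRA, one of the partners with which VDR binds DNA, was well above background in both groups. Probe set 202449_s_at read 9.41, 9.43, 9.05 and 9.34 on stiff A to D and 9.32, 9.49, 9.51 and 9.55 on soft A to D. Stiff C was the lowest array, and the other stiff arrays overlapped the soft range. The difference was 0.16 (SE 0.0915, 95% interval -0.04 to 0.36), and 0.0742 without stiff C.

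The second RXRA probe set, 202426_s_at, read 6.78, 6.79, 6.33 and 6.44 on stiff A to D and 6.78, 6.68, 6.83 and 6.79 on soft A to D. Stiff C was again lowest, followed by stiff D, while stiff A and B lay within the soft range. Its difference was 0.185 (SE 0.104), and 0.10 without stiff C. RXRA starts on chromosome 9 at 134326455 and ends at 134440585.

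RXRB, the other broadly expressed RXR, read 10.03, 9.82, 9.78 and 9.93 on stiff A to D and 9.95, 9.83, 9.85 and 9.87 on soft A to D at its brightest probe set, 209148_at. All soft arrays lay inside the stiff range. The difference was -0.015 (SE 0.0701, 95% interval -0.17 to 0.14). Its dim probe sets 215099_s_at (5.58 to 6.14) and 215098_at (4.97 to 5.47) differed by 0.17 (SE 0.114) and 0.08 (SE 0.106). RXRB lies on chromosome 6 at 33193588 to 33200853. The third family member, RXRG, was below background at 4.65 on stiff and 4.67 on soft (difference 0.015, SE 0.0738, limma adjusted p = 0.934).

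**Figure D2:**
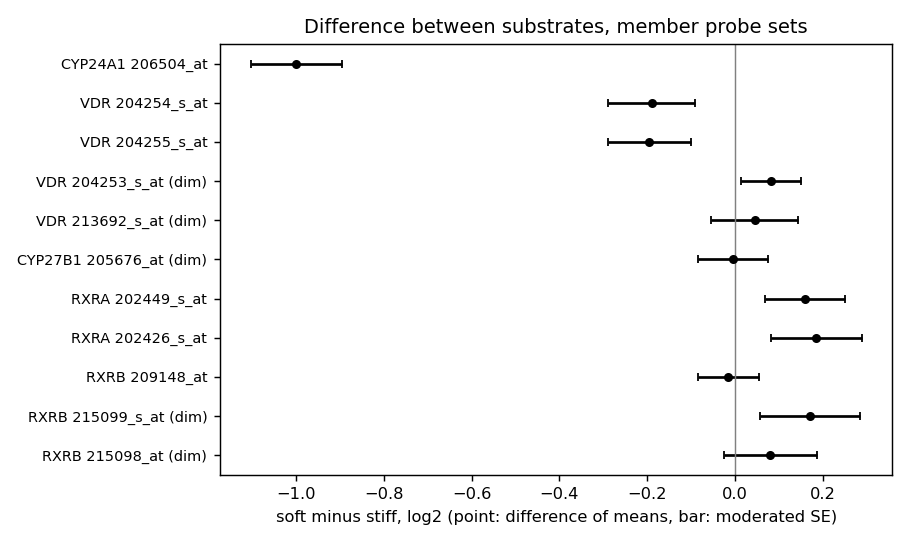
Difference of group means, soft minus stiff on the log2 scale (horizontal axis), for the 11 probe sets (vertical axis); bars are the moderated SE and "dim" marks probe sets at or below background. CYP24A1 stands at -1.0, and the other 10 lie between -0.195 and 0.185.

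Genes before the receptor, which supply, hydroxylate and carry vitamin D or pass electrons to its hydroxylases, formed a list of 12 measured genes outside the members, 9 of them above background. None passed limma's threshold in either direction (10.3% of all genes did), 1 had an unadjusted p under 0.05 (25% of all genes did), and the median difference was -0.0175 against 0.0075 for all genes. That 1 gene was SC5D, a late enzyme of cholesterol synthesis, which differed by 0.185 (SE 0.0634, limma adjusted p = 0.0995) and is named here after its values were seen.

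CYP2R1, the main enzyme of the first hydroxylation, read 9.58 ± 0.04 on stiff and 9.70 ± 0.06 on soft (SD, n = 4 each), a difference of 0.12 (SE 0.0595, limma adjusted p = 0.272). Its arrays did not overlap between groups, but its other probe sets differed by -0.065 and -0.07. CYP27A1, which can also carry out that step, differed by -0.015 (SE 0.0596, limma adjusted p = 0.918). DHCR7, which turns the skin precursor of vitamin D into cholesterol, differed by -0.0475 (SE 0.0888, limma adjusted p = 0.812). Its other probe set differed by -0.1475 (SE 0.0617, limma adjusted p = 0.177). There the groups did not overlap, beside 16.6% of all probe sets. FDX1, the ferredoxin that feeds electrons to mitochondrial hydroxylases such as CYP24A1, differed by -0.0775 (SE 0.0617, limma adjusted p = 0.515). A further list, of mitochondrial cytochrome P450 genes, shared CYP27A1 and CYP11A1 with the supply list. Of its 5 genes, 1 was above background (CYP27A1). None passed limma's threshold (10.3% of all genes did), and 1 had an unadjusted p under 0.05 (25% of all genes did). The latter was CYP27C1, with a difference of 0.49 (SE 0.144, limma adjusted p = 0.0558) at a mean level of 3.86, below background. CYP27C1 is named here after its values were seen.

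Genes that VDR is known to regulate in one tissue or another moved in both directions. Of 33 measured outside the members, 19 were above background, 3 were higher on soft, 3 lower and 27 did not pass the threshold, beside 4.39% higher and 5.93% lower among all genes. An unadjusted p under 0.05 was reached by 11 of them, 7 higher and 4 lower, beside 25% of all genes. The list median was 0.03 against 0.0075 for all genes. The list was drawn from textbook targets across tissues, and most of its genes answer to other regulators as well. Like the other lists it was chosen with earlier results of these data known, so its counts are a description. It shares CYP3A4 with the supply list.

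G0S2, an inhibitor of fat breakdown, fell with CYP24A1. It read 10.99 ± 0.08 on stiff and 10.37 ± 0.12 on soft (SD, n = 4 each), a difference of -0.62 (SE 0.0748, limma adjusted p = 0.000929), and its arrays did not overlap. FBP1, an enzyme of glucose synthesis, fell by 0.39 on the log2 scale (SE 0.092, limma adjusted p = 0.0232), from 9.91 to 9.52. HILPDA, a lipid droplet protein, fell by 0.28 (SE 0.06, limma adjusted p = 0.0167), from 8.86 to 8.58, at its brightest probe set. Its other probe set was lower too, by 0.1975, but did not pass the threshold (limma adjusted p = 0.0994). The fall of FBP1 was not past the threshold without stiff A, stiff B, soft A or soft B (adjusted p of 0.062 to 0.0673), and that of HILPDA was not without stiff B or stiff D (0.058 and 0.0502).

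LRP5, a WNT co-receptor, rose most of the list at the brightest probe sets, from 7.49 ± 0.25 on stiff to 8.11 ± 0.10 on soft (SD, n = 4 each), by 0.62 (SE 0.11, limma adjusted p = 0.0067), at 1 of its 2 probe sets. The other lay below background and differed by -0.07, and the mean of both differed by 0.275 (limma adjusted p = 0.021). CDKN1A, a cell cycle inhibitor, rose by 0.56 (SE 0.0766, limma adjusted p = 0.00184), from 9.44 to 10.00. Both groups were apart in each of these genes. ATP2B1, a plasma membrane calcium pump, was higher by 0.295 at the probe set with the highest mean (SE 0.076, limma adjusted p = 0.0342), while its other probe sets differed by -0.255 and -0.123. Its direction was therefore not settled: the mean of its 3 probe sets differed by -0.0275 (limma adjusted p = 0.869), and the call was lost on leaving out any single array (limma adjusted p of 0.0577 to 0.0993) except stiff C (0.0194).

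The calcium channel TRPV6, an intestinal VDR target, read 6.89 on stiff and 6.88 on soft (difference -0.0125, SE 0.073, limma adjusted p = 0.945). IGFBP3, a carrier of insulin-like growth factors, differed by -0.17 (SE 0.0835, limma adjusted p = 0.256), and by -0.0983 without stiff D. For TXNIP and SERPINB1 the brightest probe set did not pass the threshold, at 0.12 and 0.21, while 2 other probe sets of each did and were higher: those of TXNIP by 0.65 and 0.63, those of SERPINB1 by 0.28 and 0.34. NRIP1, CCNC and CLMN each had 1 dimmer probe set that passed it, at 0.54, 0.44 and -0.285, while their brightest did not. Those of CCNC and CLMN lay below background. The genes from TXNIP on are named after their values were seen.

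**Figure D3:**
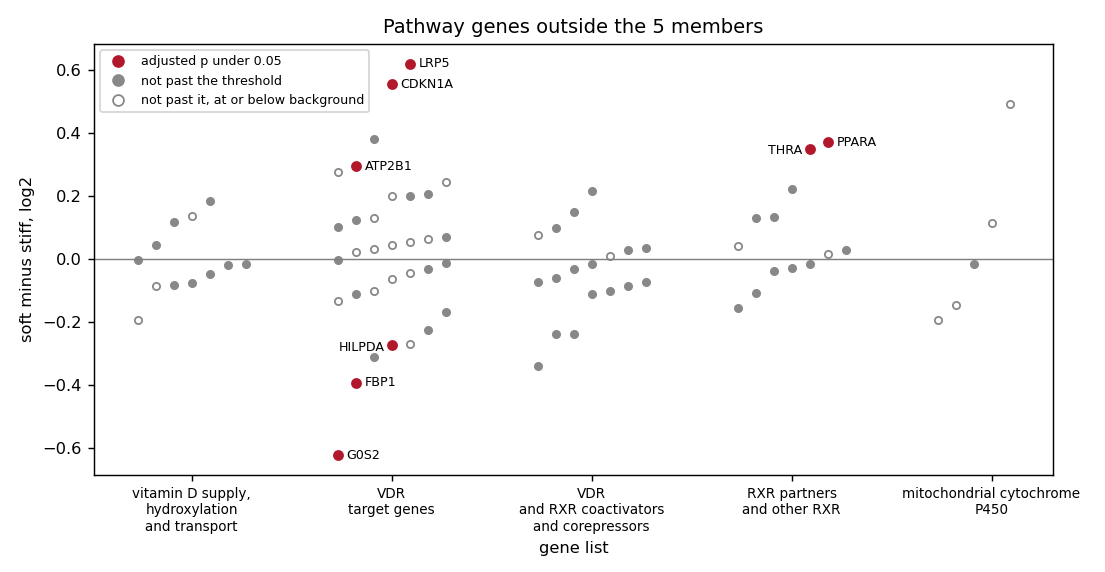
Difference soft minus stiff on the log2 scale (vertical axis) for each measured gene of the 5 lists (horizontal axis), 1 probe set a gene; red points passed an adjusted p of 0.05 in limma, grey did not, and open points lay at or below background. The 8 red points are 6 VDR targets, 3 higher and 3 lower, and PPARA and THRA among the RXR partners.

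Coactivators and corepressors that VDR and RXR recruit were represented by 18 measured genes, 16 above background. None passed limma's threshold at its brightest probe set, beside 10.3% of all genes. An unadjusted p under 0.05 was reached by 4, beside 25% of all genes, and the median difference was -0.0463 against 0.0075. MED1, the mediator subunit that binds VDR directly, differed by -0.06 (SE 0.0562, limma adjusted p = 0.59) at that probe set, while another of its 4 probe sets was higher by 0.51 (limma adjusted p = 0.0039) and the remaining ones differed by -0.195 and 0.08. NCOA1, NCOA2 and CREBBP, named after their values were seen, had 1 dimmer probe set each that was called higher. Those of NCOA2 and CREBBP lay below background, with mean levels of 4.41 and 6.10.

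Other receptors that share RXR as a partner, counted together with RXRG, had 13 measured genes, 11 above background. In limma 2 were higher on soft, none lower and 11 did not pass the threshold, beside 4.39% higher and 5.93% lower among all genes. At an unadjusted p under 0.05 there were 4, 3 higher and 1 lower, beside 25% of all genes. PPARA, a fatty acid sensor, rose by 0.37 (SE 0.0732, limma adjusted p = 0.0108), from 8.17 to 8.54, and 4 of its 9 probe sets were called, all higher. THRA, a thyroid hormone receptor, was higher by 0.35 (SE 0.0693, limma adjusted p = 0.0109) at 1 of 4 probe sets, the others differing by 0.05, -0.0775 and 0.0375. Averaged over its 4 probe sets THRA differed by 0.09 (limma adjusted p = 0.342). Across all lists 5 of 78 genes were higher and 3 lower, which is 10.3% called, beside 10.3% among all genes.

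Among the 15 cytochrome P450 genes above background, out of 47 measured, none had a more negative difference than CYP24A1. CYP2J2 and CYP20A1 followed at -0.34 and -0.25, and 9 of the 15 had differences between -0.09 and 0.11. CYP1B1, at the other end, differed by 1.36. This family was looked at after the results were known and is a description.

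**Figure D4:**
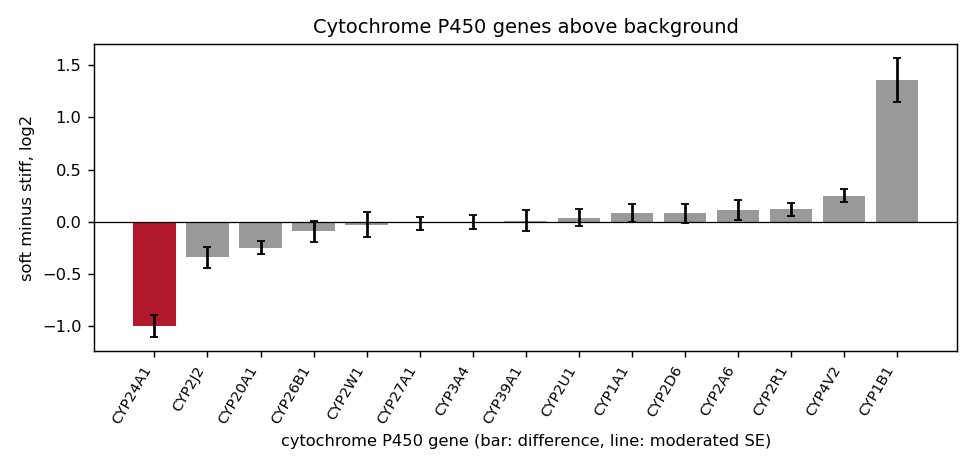
Difference soft minus stiff on the log2 scale (vertical axis, from group means of 4 arrays each, with the moderated SE as a line) for the 15 cytochrome P450 genes with a mean above background (horizontal axis). CYP24A1, in red, has the lowest value at -1.0 and CYP1B1 the highest at 1.36.

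The genes whose array-by-array pattern was most like that of CYP24A1 were found by the root mean square distance between profiles centred on each gene's mean, over the 8 arrays and 11252 genes above background. For comparison, the CYP24A1 profile itself had a root mean square size of 0.522. The nearest was RGS7, a regulator of G protein signalling, at a distance of 0.101 on the log2 scale. It was followed by the cytokine IL11 at 0.109, the phosphodiesterase PDE1C at 0.139, the aldehyde oxidase AOX1 at 0.142 and the matrix protein MATN2 at 0.146. All 5 were lower on soft, by 0.80 to 1.25 on the log2 scale, which the search itself fixes.

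RGS7 read 8.43, 8.44, 8.79 and 8.61 on stiff A to D and 7.27, 7.44, 7.86 and 7.28 on soft A to D. As in CYP24A1, replicate C was the highest array in both groups, and this held for all 5 nearest genes, a likeness that the search by array also favours. The distances of VDR (0.453), CYP27B1 (0.511), RXRB (0.534) and RXRA (0.623) from CYP24A1 were close to or above the size of its own profile.

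**Figure D5:**
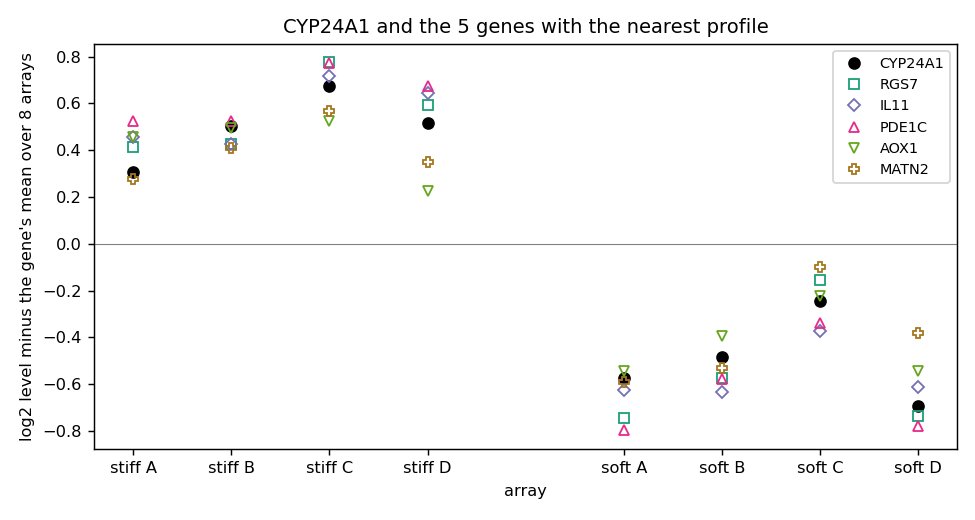
Log2 level minus the gene's mean over the 8 arrays (vertical axis) in each array (horizontal axis) for CYP24A1 (filled black) and the 5 genes with the nearest profile (open symbols). In all 6 genes every stiff array lies above 0 and every soft array below it, and replicate C is the highest array of each group.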

How the data were processed

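The 8 arrays were used through the authors' deposited value table of 54675 probe sets. Its values are log2 levels made by RMA, per the submitters' processing notes; software, version and probe definition are not given in the sources used here. RMA equalises the array distributions, and it shrinks differences between dim values. The 62 control probe sets were left out. Platform annotation gave 1 symbol for 41091 probe sets, several for 1801 (not used) and none for 11721.

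Groups were compared with limma 3.58.1 in R 4.3.3 (lmFit, eBayes, two-sided, Benjamini-Hochberg adjustment over 54613 probe sets, threshold 0.05, no filter). Differences are soft minus stiff. The procedure was tested on simulated data. List genes were read by the probe set with the highest mean, and a tie, as in ATP2B1, went to the first by name. Members and lists were chosen with earlier results of these data known. Named genes are the members, 9 measured genes taken whatever their result, from each list up to 4 called genes in each direction, taken by size of difference, and the 5 nearest profiles. The number of arrays limits the precision. Promoters were searched on both strands with 250 bases each.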

Additional observations from a re-analysis of the deposited data

Results flagged for a closer look

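In 54 groups of 4 arrays, 2 held an array far from the other 3; chance flags about 1 in 20 such groups. DHCR7 read 8.55 on stiff A, with the next stiff array at 8.42. IGFBP3 read 10.89 on stiff D, with the next stiff array at 10.62. No array of a member was set apart in this way.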

How the results depend on the processing

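The CYP24A1 difference lay between -1.02 and -0.98 under a replicate block, 3 other scalings and gene means. The replicate letters did not pair the arrays (correlations of same-letter deviations -0.118 to 0.122; the A arrays alone correlated best with each other). With the replicate block 3937 probe sets were called in place of 5061, and 4 pathway genes were higher and 2 lower, FBP1 and ATP2B1 having missed the threshold (limma adjusted p = 0.0635 and 0.0628). Leaving out 1 array gave 2851 to 5080 calls (2851 without stiff B, 3360 without stiff D, 3278 without soft D), 1 to 3 pathway genes lower (1 without stiff B) and 4 to 6 higher. Filters at the background level or the median of all, and the trended robust model, each gave 10 higher and 5 lower. The calls over all probe sets kept were 6709, 6700 and 6747 in that order, against 5061. The filters left fewer than the 54613 probe sets that the main fit and the trended robust model used. These counts are therefore not shares, and the share of all genes called was worked out for the main fit only. Whether the lists gained more calls than all genes did was not tested. The mean of all probe sets gave 9 higher. The cause was not tested. With that mean RXRB differed by 0.0783 in place of -0.015 and VDR by -0.0644 in place of -0.19. RXRB also turned sign under cyclic loess (0.012) and repeated quantile normalization (0.0128). Leaving out 1 array turned RXRB (-0.0517 to 0.0317), its dim 215098_at (-0.00333 to 0.153), CYP27B1 (-0.0408 to 0.0658) and the dim VDR 213692_s_at (-0.0275 to 0.116). Outside the members, signs turned for ATP2B1 (-0.0275 with that mean, -0.123 without marked probe sets) and, among genes never called, for CYP2R1 (-0.00583) and MED1 (0.0831) with that mean and for RXRG under median centring (-0.005), cyclic loess (-0.0109) and repeated quantile normalization (-0.0103). Leaving out 1 array gave RXRG -0.0392 to 0.0508, CYP27A1 -0.0367 to 0.00833, TRPV6 -0.0767 to 0.0267 and DHCR7 -0.105 to 0.0183. The 5 profiles nearest to CYP24A1 were the same 5 genes after median centring and with the median of all as filter.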
